A study of Homo sapiens with 21 samples.

Results

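The genes described here are those whose RNA was low in OCI-AML5 cells from 24 h to 72 h of exposure to UM171, a small molecule used to expand human blood stem cells in culture. OCI-AML5 is an established human acute myeloid leukemia line. Members were chosen from the mean TPM (a level corrected for transcript length and library size) of the cells without sgEPCR. A gene was a member when its mean was at least 5 TPM in DMSO, the vehicle, and when its means at 24, 48 and 72 h were each at most 0.4 of that value, with 0.1 TPM added to every mean. Of 58174 gene identifiers, 10049 reached 5 TPM in DMSO and 78 of these (0.776%) met all 3 ratios. The DMSO, 24, 48 and 72 h values therefore chose the members, and they are given below as a description with no test.

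RNA was sequenced from 21 libraries in 7 groups of 3. OCI-AML5 cells without sgEPCR were kept in DMSO, with a label of 72 h, or in 500 nM UM171 for 6, 24, 48 or 72 h. Clones expressing sgEPCR, a guide RNA against PROCR, the gene of the protein C receptor EPCR, were kept in DMSO or in 500 nM UM171, each for 24 h. The labels call these clones EPCR null in one place and EPCR knockdown in another, do not say which clone gave which library, and name no guide for the other cells. For the 24 h comparison with sgEPCR cells the study names a control guide to AAVS1. The study's own text gives another dose of UM171 than the labels. The same 3 DMSO libraries serve all 4 time points, and replicates are not stated to be separate cultures except that the study speaks of 3 independent sgEPCR clones, so the p-values below measure the spread between these libraries only. Cells without sgEPCR have no DMSO group labelled 6, 24 or 48 h, so UM171 and time cannot be told apart there.

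Libraries held 24.3 M to 51.5 M counts. A pair of sgEPCR libraries stood apart in the share of the 37 mitochondrial genes, which was 35.9% in replicate 1 of the DMSO group and 32.2% in replicate 2 of the UM171 group. In the remaining 19 libraries that share was 7.73% to 13.5%. The mean TPM of PROCR, the targeted gene, went from 3.68 in DMSO to 48.5 after 24 h of UM171 in control cells, and from 3.59 to 7.19 in sgEPCR cells. Of 10 genes listed as myeloid markers, 6 reached 5 TPM in DMSO, among them SPI1 at 417 TPM, CD33 at 178 TPM and PTPRC at 162 TPM, whereas MPO was at 2.69 TPM and KIT and CD14 were below 0.1 TPM. Of 8 markers of other cell types, PECAM1 at 43.7 TPM and NCAM1 at 18.5 TPM reached 5 TPM, and the T cell, B cell, erythroid, epithelial and fibroblast markers did not exceed 0.183 TPM.

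The lists below were drawn from the biology of phagocytes and leukocytes, but with earlier results of these data known. Counts of members in a list are therefore descriptions. The phagocyte NADPH oxidase makes superoxide from oxygen at the membrane, and its cytosolic organizer p47phox is encoded by NCF1, which has near-identical copies called NCF1B and NCF1C. Leukocytes also rely on integrins such as LFA-1, whose alpha chain is ITGAL, for adhesion, on G protein-coupled receptors for lipids and nucleotides, and on granule and pore proteins such as BPI and MPEG1 against bacteria. NR1D1 and NR1D2 encode the REV-ERB receptors, which repress transcription in the circadian clock.

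Promoters of 4 members are shown: NCF1 and MYBPH, the 2 in which GAGGAAGT was found, and HSPA1B and TASL, the most abundant of the 4 with TATAAA. Each sequence is the 250 bases before the RefSeq start (GRCh38.p14), 5′ to 3′ on the strand of the gene. Capitals mark GAGGAAGT, a site of PU.1, the factor encoded by SPI1, which reads ACTTCCTC when it lies on the other strand, and TATAAA, the TATA box.
NCF1 (chr7:74773761-74774010, plus strand): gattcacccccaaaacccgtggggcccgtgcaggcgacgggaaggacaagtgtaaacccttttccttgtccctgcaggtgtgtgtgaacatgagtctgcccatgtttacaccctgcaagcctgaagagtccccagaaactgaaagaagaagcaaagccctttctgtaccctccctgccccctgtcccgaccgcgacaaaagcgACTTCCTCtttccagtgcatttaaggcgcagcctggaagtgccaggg
MYBPH (chr1:203175827-203176076, minus strand): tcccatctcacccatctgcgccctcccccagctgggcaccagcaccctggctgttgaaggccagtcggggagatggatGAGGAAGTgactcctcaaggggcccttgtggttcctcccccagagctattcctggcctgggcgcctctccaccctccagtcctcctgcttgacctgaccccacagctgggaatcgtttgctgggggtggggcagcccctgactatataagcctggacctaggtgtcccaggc
HSPA1B (chr6:31827488-31827737, plus strand): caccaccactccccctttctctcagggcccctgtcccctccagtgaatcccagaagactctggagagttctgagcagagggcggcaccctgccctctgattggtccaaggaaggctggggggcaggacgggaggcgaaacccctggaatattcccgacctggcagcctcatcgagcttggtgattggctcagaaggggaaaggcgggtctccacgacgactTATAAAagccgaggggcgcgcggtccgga
TASL (chrX:30577767-30578016, minus strand): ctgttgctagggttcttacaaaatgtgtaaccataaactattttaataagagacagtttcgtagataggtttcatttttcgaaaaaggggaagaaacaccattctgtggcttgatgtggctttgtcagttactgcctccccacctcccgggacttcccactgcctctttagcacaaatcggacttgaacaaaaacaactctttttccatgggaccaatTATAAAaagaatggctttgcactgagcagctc
RefSeq entries were found for 29 members, over 300 bases each (250 before and 50 after the start). GAGGAAGT was present on either strand in 2 of 29 (6.9%), against 2.7% of 7928 promoters of genes at 5 TPM or more in DMSO and 2.54% of all 27305. TATAAA was present in 4 of 29 (13.8%; DHRS9, HSPA1B, MUC19 and TASL), against 5.11% and 12%. AAATCA, the core of GFI1 sites, was present in 4 (13.8%), against 6.23% and 13.3%, CACGTG, the E-box, in 1 (3.45%), against 11.1% and 7.43%, and CAGGAAGT, an ETS site that differs from GAGGAAGT in its first base, in 1 (3.45%), against 3.82% and 3.2%. TAGGTCA, bound by REV-ERB receptors, and TTGCGCAA, a C/EBP site, were not found in these windows. The median ratio of observed to expected CpG was 0.618 in members, 0.861 in genes at 5 TPM or more and 0.58 in all promoters. These are descriptions of letters, and no binding was measured.

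The 78 members were 42 protein-coding genes, 10 long noncoding RNAs, 10 pseudogenes, 7 small nucleolar RNAs, 4 microRNA genes, 3 other short RNAs and 2 identifiers that GENCODE v44 no longer holds, whose transcripts it places in the histone genes H2AC18 (ENSG00000203812) and H2AC19 (ENSG00000272196). They did not rest on equal evidence. In 17 members, all at most 135 bases long, at least 1 DMSO library had fewer than 10 counts, and 15 of these were listed at 0 TPM in at least 1 DMSO library. ENSG00000278791, the highest of them with a mean of 131 TPM, had 392 TPM from 14 counts in DMSO replicate 1 and was listed at 0 TPM in replicates 2 and 3, which had 3 and 1 counts. From 24 to 72 h it was listed at 0 TPM in all 9 libraries although each had 1 to 5 counts. SNORD14D, a small nucleolar RNA within HSPA8, had 0.62 estimated counts and 19.7 TPM in DMSO replicate 1. The highest count of any of the 17 in a DMSO library was 18.1, in SNORA48. They include 3 SNORD116 copies, SNORD14A, SNORD12B, MIR1282, MIR3614 and MIR7846, and their TPM ratios rest on a few fragments.

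A further 6 members owed their DMSO mean to replicate 1, whose TPM was over 3 times that of the middle DMSO library. BCAS4 had 17.9, 2.33 and 3.88 TPM in DMSO and 1.34 to 3.71 TPM at 24 to 72 h. SH3D19 had 12.9, 1.97 and 2.43 TPM in DMSO and 0.85 to 3.39 TPM later. ENSG00000280614, ENSG00000280800 and ENSG00000281181 on chromosome 21 had the same value in every library, 45.9, 3.9 and 2.57 TPM in DMSO, since reads of identical sequence were split evenly, so they count as 1 signal. The last of the 6 was H2AC19. In all 6 the other DMSO replicates overlapped libraries of 24 to 72 h.

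In 5 more the fall was deeper in TPM than in counts. CEP97, which encodes a centrosomal protein, had 20, 31.5 and 4.98 TPM in DMSO and 4.83 to 6.92 TPM at 24 to 72 h, yet its CPM with TMM scaling (counts scaled to library size with edgeR's correction for composition) was above DMSO at each of these times, by up to 1.43 times. Its estimated transcript length was as short as 978 bases in a DMSO library and at least 5896 bases in every later one, so the TPM and the counts of CEP97 moved apart with the length assigned to it. SNHG25, a host of small nucleolar RNAs, had 39.4, 36 and 2.97 TPM in DMSO, TPM ratios of at most 0.309 and count ratios of up to 0.929. ABCB9, ABCA17P and ENSG00000253821 had count ratios just over the limit, at 0.419, 0.414 and 0.403.

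The remaining 50 members had at least 10 counts in every DMSO library, no DMSO library over 3 times the middle one and count ratios of at most 0.4 as well. They were 38 protein-coding genes, 6 pseudogenes, 5 long noncoding RNAs and H2AC18. H2AC18 had 22.5, 59 and 60.4 TPM in DMSO, and RSEM's posterior SD was 40.9% of its count in the first of these. In each of the 50, every library at 24, 48 and 72 h lay below every DMSO library. The background for such separation among the 10049 genes at 5 TPM or more was 38.7% at 24 h, 39.3% at 48 h and 44.1% at 72 h, and the rule itself used these groups. Their median ratio to DMSO was 0.226 at 24 h, 0.21 at 48 h and 0.27 at 72 h, against 0.979, 0.935 and 0.939 over the 10049 genes. The lowest mean fell at 48 h in 24 of the 50, at 24 h in 17 and at 72 h in 9. Between 24 and 72 h, 11 members rose again by more than 1.5 times, 10 went down further by more than 1.5 times and 29 stayed within that factor.

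**Figure D1:**
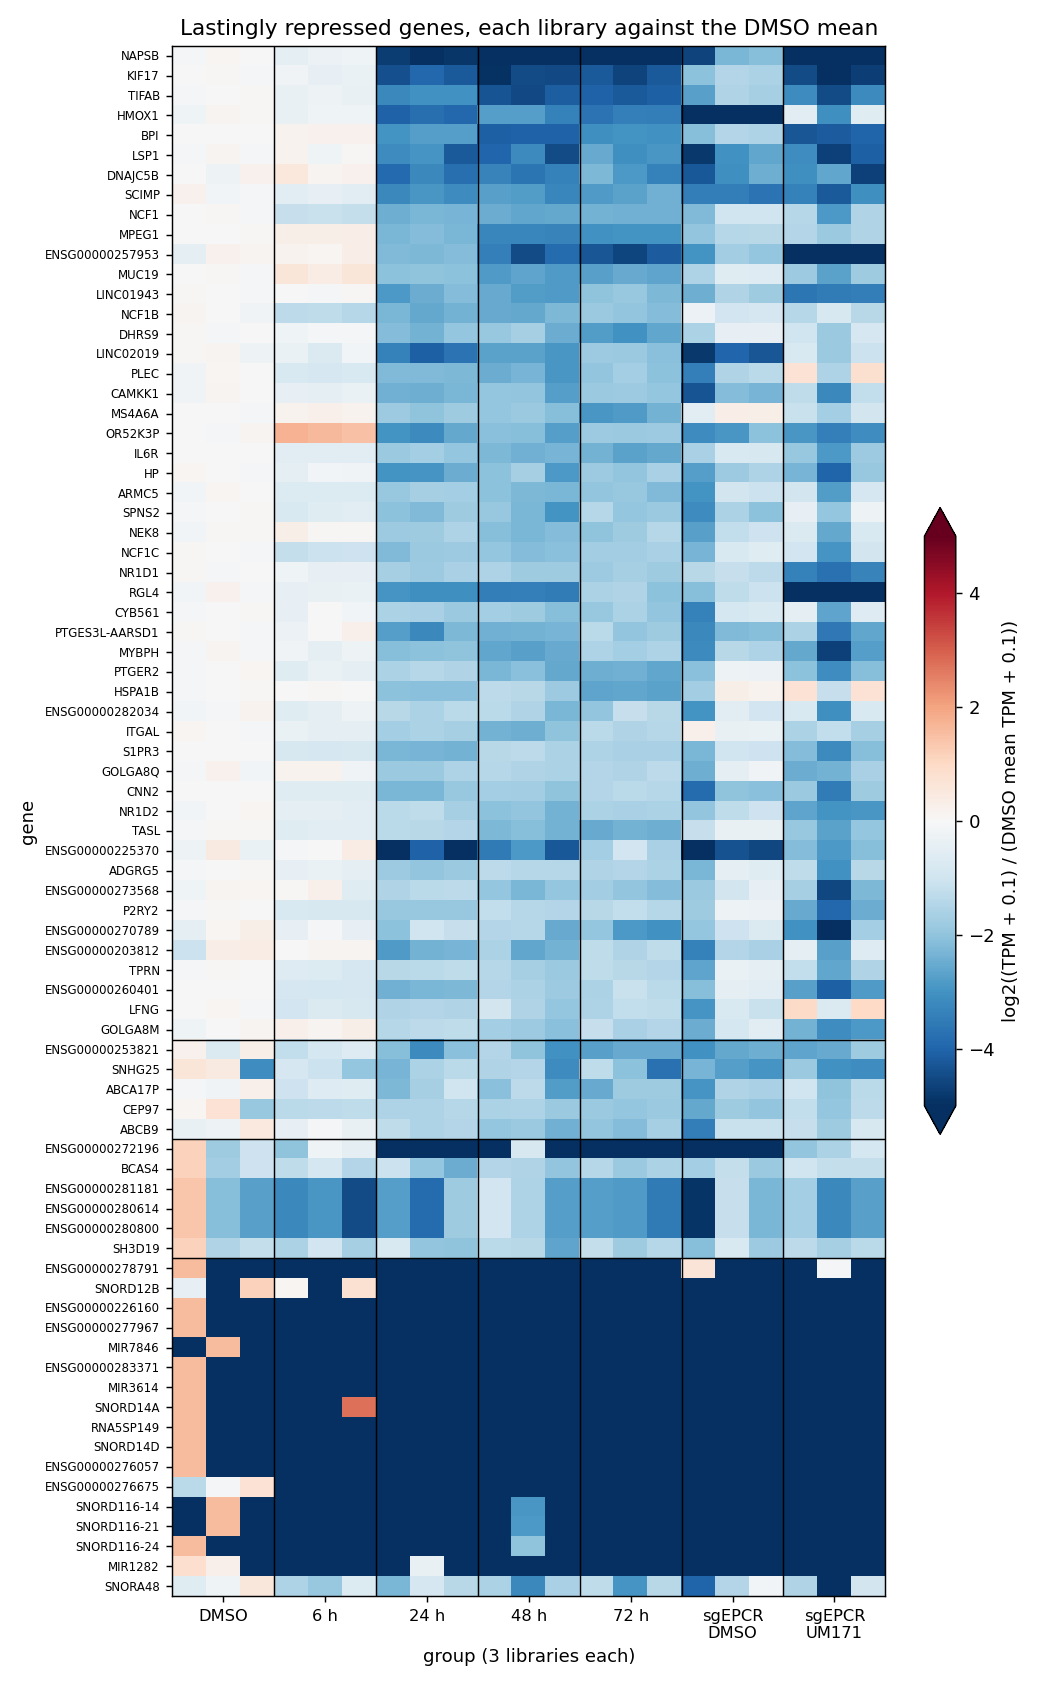
Each row is a member and each column a library, colored by the log2 ratio of TPM + 0.1 to the DMSO mean + 0.1. Horizontal lines separate the 50 members with 10 or more counts in every DMSO library, no outlying high DMSO library and count ratios of at most 0.4, the 5 with a higher count ratio, the 6 whose DMSO mean rests on replicate 1, and the 17 with fewer than 10 counts in a DMSO library, where most cells are at 0 TPM.

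**Figure D2:**
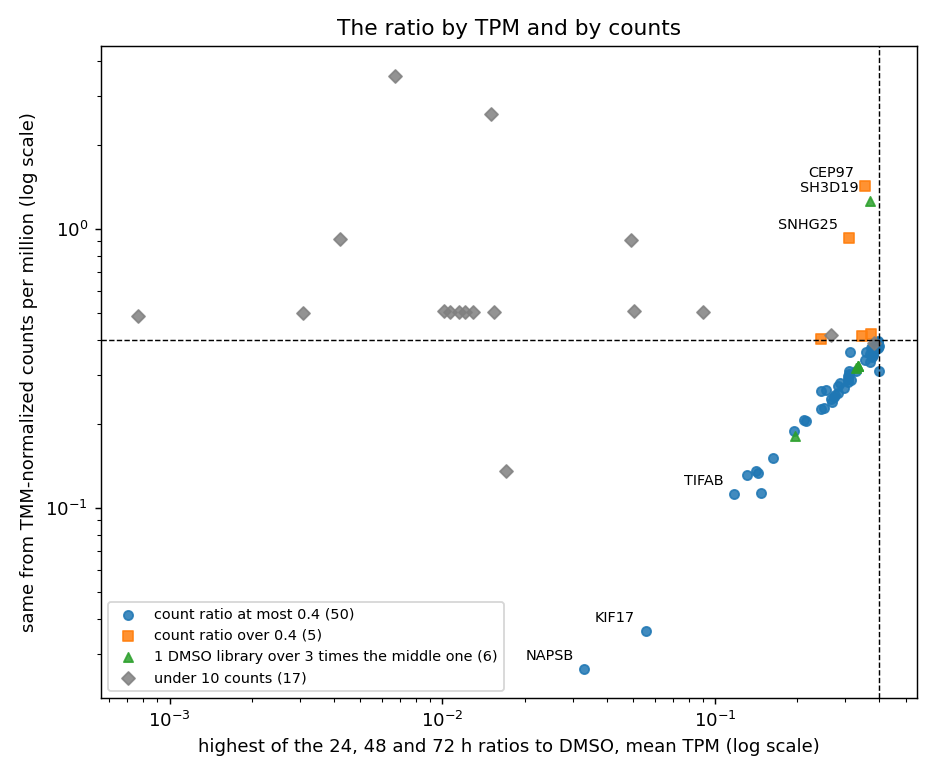
Each point is a member, with the highest of its 24, 48 and 72 h ratios to DMSO by mean TPM (x) and by TMM-normalized CPM (y), both on log axes, and the dashed lines mark 0.4. The 50 members lie near the diagonal, while CEP97, SH3D19, SNHG25 and most of the 17 members with few counts lie above the limit on the count axis.

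MYBPH, a myosin-binding protein and 1 of the 50, had 16.5, 18.6 and 16.1 TPM in DMSO and 2.48 to 5.81 TPM from 24 h on. Just inside the ratio limit were GOLGA8M (highest ratio 0.4), LFNG (0.397) and ENSG00000260401 (0.397). Just outside it were CD244 (0.405), ENSG00000271882 (0.408) and WNT10B (0.409). At the level limit, ENSG00000225370 (5.56 TPM in DMSO), ENSG00000276675 (5.73 TPM) and SH3D19 (5.75 TPM) were inside, and DCANP1 (4.83 TPM), which overlaps TIFAB on the same strand, ENSG00000274307 (4.75 TPM) and ENSG00000273058 (4.63 TPM) were outside.

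The deepest lasting falls among the 50 were in NAPSB, KIF17 and TIFAB. NAPSB, a transcribed pseudogene of the napsin protease family on chromosome 19 (50333877 to 50344761, minus strand), had 14.1, 15.7 and 14.9 TPM in DMSO, 0.32 to 0.46 TPM at 24 h, 0.04 to 0.19 TPM at 48 h and 0.1 to 0.21 TPM at 72 h. Its counts went from 398 to 432 in the DMSO libraries to 2 to 4 at 72 h. KIF17, a kinesin motor, had 6.79, 7.24 and 6.71 TPM in DMSO and 0.13 to 0.36 TPM in all 9 later libraries. TIFAB, a regulator of TRAF6 signaling in blood cells, had 26.6, 27.9 and 29.2 TPM in DMSO, 2.9 to 3.35 TPM at 24 h and 1.12 to 1.61 TPM at 48 and 72 h. None of these groups overlapped with DMSO.

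Among the oxidase genes, NCF1 (chromosome 7, 74774011 to 74789315) had 125.2, 127.5 and 117 TPM in DMSO and 20.1 to 25 TPM in all 9 libraries from 24 to 72 h, with little change between those times. NCF1B had 50.7, 46.4 and 41.2 TPM in DMSO and 7.67 to 12.6 TPM later, and NCF1C had 57.7, 53.5 and 52.9 TPM in DMSO and 11.7 to 17.7 TPM later. Reads of these copies can be shared. RSEM's posterior SD in DMSO replicate 1 was 0.928% of the count for NCF1, 2.4% for NCF1B and 1.81% for NCF1C, which is small beside the falls. CYBB, the catalytic subunit, was not a member, with a mean of 13 TPM in DMSO and 43.8 TPM at 72 h.

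IL6R, P2RY2, S1PR3, PTGER2 and ADGRG5 are receptors. IL6R, the interleukin 6 receptor and the most abundant member, had 254, 253 and 259 TPM in DMSO, 67.4 to 77.9 TPM at 24 h, 48.4 to 53.8 TPM at 48 h and 39.7 to 49.7 TPM at 72 h, so that it fell further over time. P2RY2, a receptor for ATP and UTP, had 61.1, 66.9 and 62.6 TPM in DMSO and was lowest at 24 h (17 to 17.2 TPM), with 23.2 to 27.3 TPM at 48 and 72 h. S1PR3, a sphingosine 1-phosphate receptor, followed the order of P2RY2, with 22.5, 23.1 and 23.5 TPM in DMSO, 4.4 to 4.7 TPM at 24 h and 7.35 to 9.12 TPM later. PTGER2, the EP2 prostaglandin receptor, went from 34.1, 34.9 and 37.7 TPM to 11.8 to 13.1 TPM at 24 h and 5.83 to 6.7 TPM at 72 h. ADGRG5, an adhesion receptor, had a DMSO mean of 44.1 TPM and ratios of 0.27, 0.383 and 0.352 at the 3 times. The long noncoding RNA ENSG00000260401 overlaps the end of P2RY2 on the same strand (chromosome 11, 73238975 to 73242335) and its reads may belong to that gene. Its ratios were 0.202, 0.327 and 0.397, beside 0.27, 0.391 and 0.392 for P2RY2.

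Adhesion and actin genes were among the most abundant members. ITGAL had 251, 234 and 229 TPM in DMSO, 73.6 to 79.4 TPM at 24 h, 43.7 to 59.4 TPM at 48 h and 84.1 to 92.6 TPM at 72 h, while its partner chain ITGB2 was not a member, at 262 TPM in DMSO and 534 TPM at 72 h. The alpha chains ITGAM and ITGAX went from 13.2 to 98.3 and from 17.5 to 64.5 TPM over the same time. CNN2, a calponin that binds actin, went from 215, 210.2 and 219.7 TPM to 43.6 to 58 TPM at 24 h and 78.8 to 83.7 TPM at 72 h. PLEC, which encodes the linker protein plectin, went from 60.7, 73.7 and 69.9 TPM to 14.2 to 14.9 TPM at 24 h. LSP1, a leukocyte actin-binding protein, went from 11.5, 13.3 and 11.9 TPM to 0.46 to 2.06 TPM in all later libraries.

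Of 22 granule and antimicrobial genes listed, 11 reached 5 TPM in DMSO and 4 were members. Of 23 monocyte genes, 12 reached 5 TPM and 5 were members. Of all genes at 5 TPM or more, 0.776% were members, but the lists were chosen with earlier results known, so nothing is read from these counts. Others on these lists moved in both directions. Some were higher in UM171 than in DMSO by 72 h: mean TPM went from 717 to 1693 for LYZ, from 31.5 to 143 for CTSG, from 50.9 to 113 for CTSS, from 19.2 to 89.9 for VCAN and from 24.2 to 52.8 for CSF1R. Some that were not members were lower: it went from 8.24 to 3.72 for FCN1, from 44.1 to 27.3 for CCR2 and from 11.8 to 9.07 for RNASE3. BPI, the bactericidal protein that binds endotoxin, had 22.2, 23.2 and 22.9 TPM in DMSO, 2.78 to 3.31 TPM at 24 h, 1.25 to 1.27 TPM at 48 h and 2.64 to 2.77 TPM at 72 h. MPEG1, which encodes the pore protein perforin-2, had 39.8, 40.1 and 41.6 TPM in DMSO and 3.95 to 8.88 TPM later. It lies within DTX4 on the other strand, and whether the counting used strand is not given in the sources used here. HP, haptoglobin, went from a DMSO mean of 16.4 TPM to ratios of 0.144 to 0.288. TASL, an adaptor for IRF5 in Toll-like receptor signaling, went from 154, 171 and 171 TPM to 28.7 to 31.8 TPM at 72 h. MS4A6A, a membrane protein of monocytes, went from 67.7, 66.6 and 64 TPM to 8.64 to 12.8 TPM at 72 h. HMOX1, the heme oxygenase that degrades heme, went from 41.9, 54 and 51.8 TPM to 2.88 to 3.55 TPM at 24 h, 4.62 to 7.27 TPM at 48 h and 3.69 to 4.56 TPM at 72 h. Samples at all 3 late times lay below DMSO for each of these genes.

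Clock and chaperone members were few. NR1D1 had 12.5, 11.5 and 11.5 TPM in DMSO and 3.27 to 3.98 TPM in all 9 later libraries, and NR1D2 had 8.65, 9.47 and 10.1 TPM in DMSO and 1.76 to 3.86 TPM later. Of 18 clock genes listed, these 2 were members. HSPA1B, an inducible HSP70 whose reads can be shared with its near-identical neighbor HSPA1A, had 156, 163 and 168 TPM in DMSO, 37.8 to 39.1 TPM at 24 h, 46 to 66.1 TPM at 48 h and 25.3 to 26.9 TPM at 72 h. RSEM's posterior SD for it was 1.08% of the count in DMSO replicate 1. It was the only member of 15 listed heat shock genes, and HSPA1A missed the rule with a highest ratio of 0.572. No member was found among 23 myeloid and progenitor transcription factors or, by the symbols used in the files, among 88 histone genes, although both identifiers that GENCODE v44 no longer holds are histone transcripts.

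**Figure D3:**
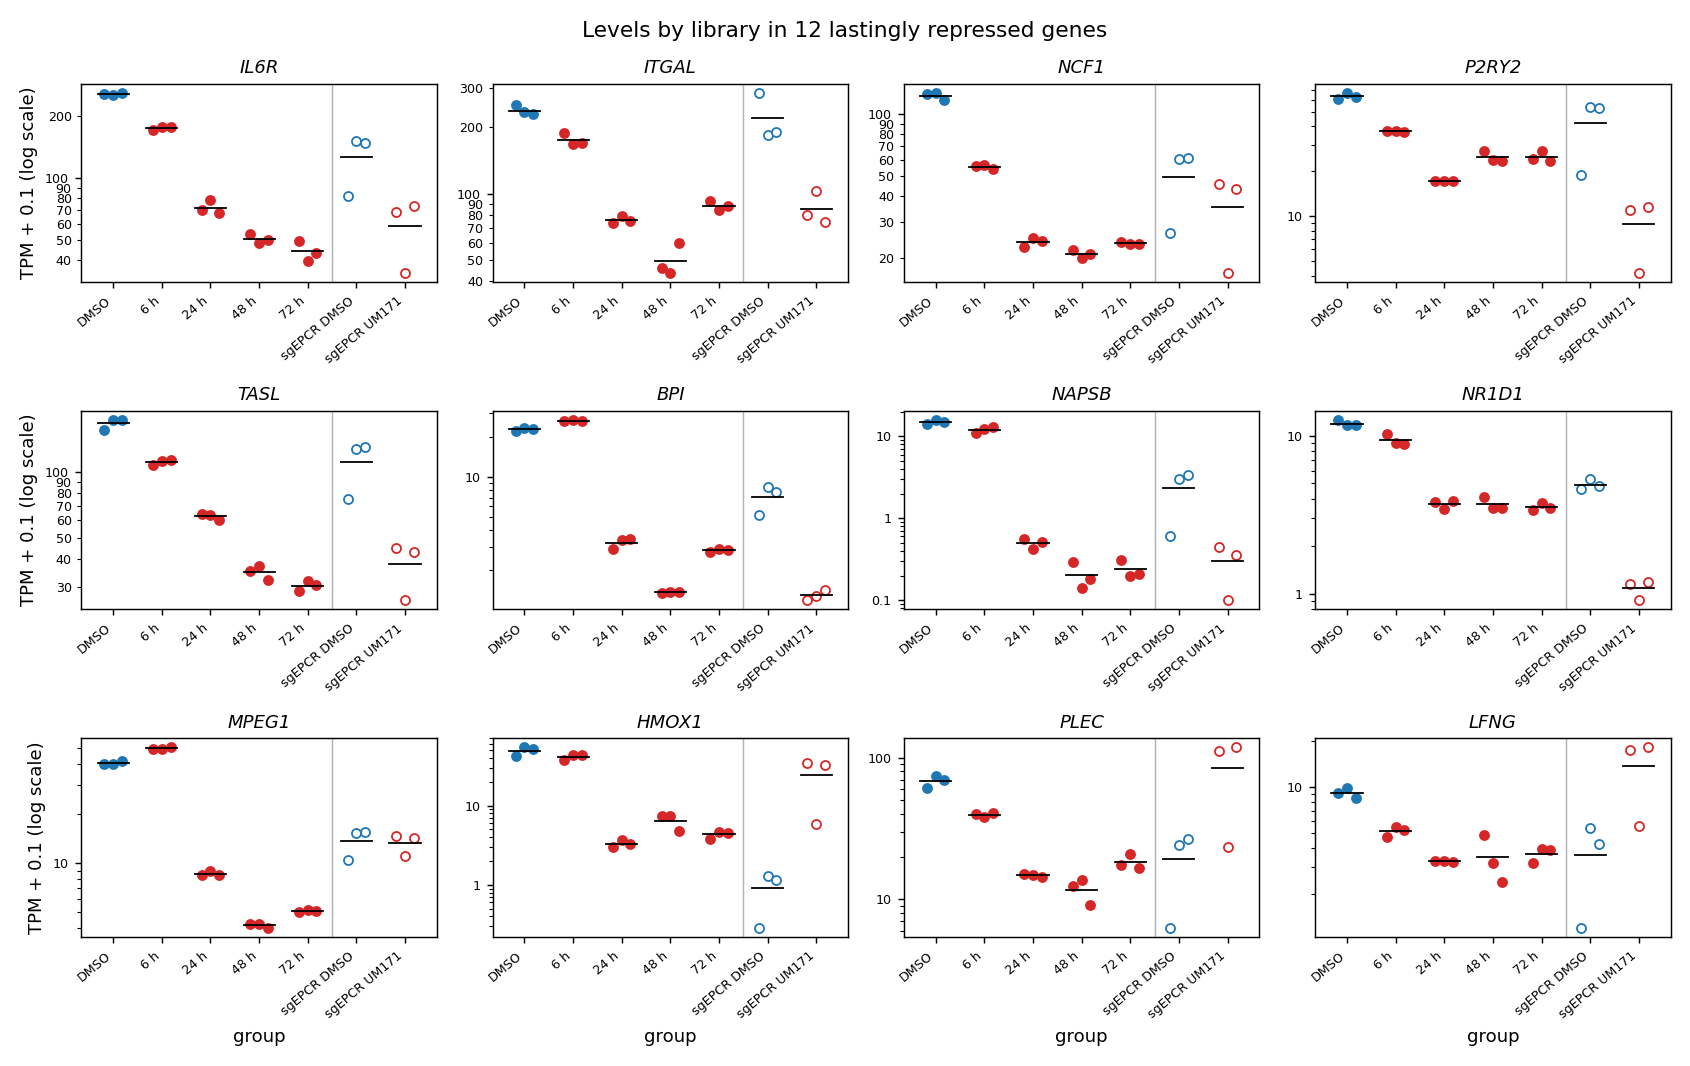
TPM + 0.1 per library on log axes in 12 members, with DMSO in blue, UM171 in red, sgEPCR cells as open circles and group means as lines. NCF1 was lower at 6 h, BPI and MPEG1 were not, and HMOX1, PLEC and LFNG had sgEPCR UM171 means above their sgEPCR DMSO means.

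Whether the members had already moved at 6 h was examined with libraries that the rule did not use, against the DMSO libraries that it did use. Those DMSO libraries have a label of 72 h, so UM171 and time in culture cannot be told apart at 6 h. The counts that follow are therefore descriptions and support nothing by themselves. In edgeR's quasi-likelihood fit of the 15 libraries without sgEPCR, 61 members passed the filter on low counts and 17 did not. At an adjusted p under 0.05, 40 of the 61 (65.6%) were lower at 6 h, where 30.3% of all 16575 genes tested were lower, and 4 (6.56%) were higher, where 31.8% of all were higher. The 40 include the 3 identifiers of chromosome 21 that share their counts. The median log2 fold change was -0.51 in the 61 members and 0.02 over all genes tested. With a change over 2-fold and an adjusted p under 0.0001, 5 members were lower (0.247% of all genes) and 1 was higher (6.78%). By TPM, 34 of the 78 members had every 6 h library below every DMSO library, against 26.5% of the genes at 5 TPM or more.

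The NCF1 copies were the lowest of the well-counted members at 6 h. NCF1 had 55.8, 56.9 and 54.5 TPM at 6 h, all below DMSO, with a log2 fold change of -1.31 (standard error 0.06, adjusted p = 4.3e-11, edgeR quasi-likelihood test here and below). The log2 fold change was -1.54 for NCF1B (standard error 0.11) and -1.28 for NCF1C (standard error 0.09). P2RY2 (-0.95), S1PR3 (-0.98), LFNG (-1.02), which encodes a glycosyltransferase acting on Notch receptors, and ENSG00000260401 (-1.03) were also lower at 6 h. PLEC (-0.85), CNN2 (-0.76), TASL (-0.75), SCIMP (-0.74), IL6R (-0.72), PTGER2 (-0.63), ITGAL (-0.62), ADGRG5 (-0.61), NR1D2 (-0.58), NR1D1 (-0.51), NAPSB (-0.5), TIFAB (-0.5), KIF17 (-0.47), HMOX1 (-0.43), HP (-0.42) and DHRS9 (-0.29) had smaller falls past the threshold. With limma on log2(TPM + 0.1), the calls of DHRS9, HMOX1, HP, KIF17 and NAPSB were lost, with adjusted p values from 0.2 to 0.66, and with total count scaling those of DHRS9 (0.39), HP (0.079) and KIF17 (0.054). For KIF17 and NAPSB the falls were slight beside their later ratios, at 0.806 and 0.804 of DMSO by mean TPM.

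Some members were higher at 6 h, had no call or had a small fall. OR52K3P, an olfactory receptor pseudogene, had 5.87, 5.5 and 6.51 TPM in DMSO and 20, 18.6 and 16.5 TPM at 6 h, a log2 fold change of 1.46 (standard error 0.12, adjusted p = 2.3e-08), before it was at 0.57 to 1.62 TPM from 24 h on. MUC19, a mucin gene, had 38, 40.1 and 37.1 TPM in DMSO and 59.1, 49.3 and 57.7 TPM at 6 h (log2 fold change 0.38, standard error 0.07, adjusted p = 1.8e-04). MPEG1 had 49.3, 49.3 and 50.4 TPM at 6 h (log2 fold change 0.13, adjusted p = 0.014), and its adjusted p rose to 0.06 without DMSO replicate 2 and to 0.14, 0.051 and 0.084 without 6 h replicates 1, 2 and 3. BPI had 26 to 26.6 TPM, above every DMSO library, with a log2 fold change of 0.04 (adjusted p = 0.57), and that of MS4A6A was -0.01 (adjusted p = 0.89), that of LSP1 -0.2 (adjusted p = 0.14). BPI was called higher with total count scaling (0.22, adjusted p = 0.0032), upper quartile scaling (0.047) and limma on log2(TPM + 1) (0.036). MS4A6A was called higher with total count scaling (adjusted p = 0.032). These settings also raised the median of all genes tested. HSPA1B had 162, 168 and 164 TPM and a log2 fold change of -0.15 (adjusted p = 0.02), which was 0.04 with total count scaling and had an adjusted p of 0.06 without DMSO replicate 3. CEP97 was higher by counts (log2 fold change 0.64, standard error 0.07, adjusted p = 3.2e-07) and at 0.404 of DMSO by TPM.

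The sgEPCR cells gave the comparison that is independent of the rule, since none of their libraries chose a member. In a fit of the 6 sgEPCR libraries, 60 members passed the filter on low counts. The other 18 did not and were not tested. Of the 60, NAPSB, KIF17 and ENSG00000257953 had fewer than 10 counts in every sgEPCR UM171 library and passed through their DMSO libraries. ENSG00000273568, with 15, 2 and 12 counts in sgEPCR UM171, also passed through its DMSO libraries alone. So did ENSG00000270789, with 4.47, 0 and 13.55 counts in sgEPCR UM171, which was not called. H2AC19 and LINC02019 passed through their UM171 libraries alone. These members passed only through the group where they were high, so their calls and folds are descriptions. At an adjusted p under 0.05, 25 of the 60 (41.7%) were lower after 24 h of UM171, where 16.2% of all 14954 genes tested were lower. Another 6 (10%) were higher, where 20.8% of all were higher, and 29 did not pass. The median log2 fold change was -0.69 in the members and -0.01 over all genes tested. The 25 include NAPSB, KIF17, ENSG00000257953 and ENSG00000273568, the 6 include H2AC19 and LINC02019, and all of these enter the median. Part of these shares therefore rests on how members passed the filter. With a change over 2-fold and an adjusted p under 0.0001, RGL4 alone was lower (0.0201% of all genes tested) and none was higher (0.381% of all). With limma on log2(TPM + 0.1), 6 members were lower and 3 higher, and of the members described below ADGRG5, DHRS9, ENSG00000260401, IL6R, LFNG, MS4A6A, MUC19, NAPSB, NCF1, NR1D2, P2RY2, PLEC, PTGER2, S1PR3, SH3D19, TASL and TIFAB lost their calls, with adjusted p values from 0.056 (TASL) to 0.95 (SH3D19). The share of all genes that limma called is not given here, so these counts show only how the calls depend on the method. By TPM, every sgEPCR UM171 library was below every sgEPCR DMSO library in 16 of the 78 members, against 5.94% of the genes at 5 TPM or more, and above in 5, against 13.1%. In the same 5 every 24 h library of control cells was below every DMSO library, a pattern that 3.76% of the genes at 5 TPM or more had and of which the choice of members fixed the fall in control cells. Of the 3890 of those genes with that fall, 378 had both, beside 5 of the 56 members with it. These shares are similar, so nothing is read from the 5. In bulk RNA, a smaller share of cells that express a gene and less of its RNA per cell cannot be told apart.

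The 2 libraries rich in mitochondrial counts are 1 of each sgEPCR group. Of the 50 members, 47 were lowest in sgEPCR DMSO replicate 1 among the sgEPCR DMSO libraries, and 44 were lowest in replicate 2 among those of UM171. With a term for these 2 libraries, which was added after the data were seen, 33 members were lower (37.5% of all genes tested) and 11 higher (36.2%). The members that passed the filter only through the group where they were high are among those called. Without these 2 libraries, 33 were lower (38.0% of all) and 13 higher (38.2%). The part of the mitochondrial share in the members' levels was not tested, and where values within both pairs of libraries are given below, the first is the ratio over the other 4 libraries and the second the ratio of those 2.

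RGL4 and BPI fell furthest in sgEPCR cells among members with at least 10 counts in a UM171 library. RGL4, a guanine nucleotide exchange factor of the Ral family, had 10.1, 18.7 and 21.1 TPM in the DMSO libraries of these cells and 0.82, 0.6 and 0.95 TPM in those of UM171, with a log2 fold change of -4.41 (standard error 0.17, adjusted p = 7.4e-05) and ratios of 0.0493 and 0.0688 within both pairs. KIF17 had 1.6, 2.43 and 2.22 TPM and then 0.22, 0.11 and 0.17 TPM (-4.04, standard error 0.32, adjusted p = 4.6e-04). The long noncoding RNA ENSG00000257953 had 14, 29 and 33 counts and then 2, 0 and 1 counts (-4.66, standard error 0.52, adjusted p = 0.0013). NAPSB had 0.5, 2.94 and 3.29 TPM and then 0.35, 0 and 0.26 TPM (-3.63, standard error 0.76, adjusted p = 0.013), and its adjusted p was 0.057 without sgEPCR UM171 replicate 3. BPI had 5.08, 8.28 and 7.65 TPM and then 1.09, 1.17 and 1.33 TPM (-2.78, standard error 0.22, adjusted p = 4.4e-04). Each of these groups was apart from its control. ENSG00000257953, KIF17 and NAPSB had to differ to pass the filter, so their folds depend on a few counts and are not ranked.

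Receptors and clock members were also lower in sgEPCR cells. P2RY2 had 18.6, 53.7 and 52.5 TPM in DMSO and 10.9, 4.09 and 11.4 TPM in UM171, with a log2 fold change of -2.48 (standard error 0.18, adjusted p = 3.5e-04) and ratios of 0.211 and 0.224 within both pairs. IL6R had 82, 150.6 and 148 TPM and then 68.6, 34.7 and 72.9 TPM (-1.22, standard error 0.16, adjusted p = 0.0023, and 0.074 with total count scaling). PTGER2 changed by -1.85 (adjusted p = 8.0e-04), S1PR3 by -1.34 (adjusted p = 5.8e-04) and ENSG00000260401 by -2.47 (adjusted p = 5.7e-04). ADGRG5 changed by -0.97 (adjusted p = 0.044), with an adjusted p of 0.12 without sgEPCR DMSO replicate 2, 0.13 without replicate 3, 0.064 and 0.086 without sgEPCR UM171 replicates 1 and 3, and 0.28 with total count scaling. NR1D1 had 4.49, 5.21 and 4.7 TPM and then 1.05, 0.81 and 1.08 TPM (-2.62, standard error 0.36, adjusted p = 0.0026), a group apart from its control in all 6 libraries, and NR1D2 changed by -1.71 (adjusted p = 0.0043).

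Of the adhesion, monocyte and oxidase members, ITGAL had 287, 184 and 189.6 TPM in sgEPCR DMSO and 79.7, 102 and 74.5 TPM in UM171 (log2 fold change -1.51, standard error 0.11, adjusted p = 3.4e-04). It was highest in the libraries rich in mitochondrial counts, and its ratios were 0.413 and 0.357 within both pairs. TASL changed by -1.8 (adjusted p = 4.7e-04), TIFAB by -1.93 (adjusted p = 5.7e-04), MS4A6A by -1.43 (adjusted p = 0.0011), MUC19 by -1.36 (adjusted p = 9.0e-04) and DHRS9, a retinol dehydrogenase, by -0.67 (adjusted p = 0.0053, and 0.23 with total count scaling). NCF1 changed by -0.75 (standard error 0.18, adjusted p = 0.02), and its adjusted p was 0.064 and 0.072 without sgEPCR DMSO replicates 2 and 3 and 0.3 with total count scaling. NCF1B (-0.76, adjusted p = 0.33) and NCF1C (-0.56, adjusted p = 0.23) did not pass. With the term for the 2 libraries they had adjusted p values of 7.4e-05 and 0.0012.

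Members that were higher after UM171 in sgEPCR cells were HMOX1, LINC02019, PLEC, LFNG, SH3D19 and H2AC19. HMOX1 had 0.19, 1.19 and 1.04 TPM without UM171 and 33.8, 5.83 and 32.5 TPM with it, with a log2 fold change of 4.62 (standard error 0.61, adjusted p = 0.0023), and the ratios within both pairs were 27.4 and 20.5. The long noncoding RNA LINC02019 had 0.11, 0.28 and 0.21 TPM and then 3.45, 1.58 and 2.78 TPM (3.38, standard error 0.29, adjusted p = 5.7e-04). It had 6, 6 and 11 counts in sgEPCR DMSO and passed the filter only through its UM171 libraries, so this fold is a description. LFNG had 1.1, 5.29 and 4.11 TPM and then 17.5, 5.42 and 18.1 TPM (1.79, standard error 0.35, adjusted p = 0.0095, and 0.052 with total count scaling). PLEC had 6.2, 24.2 and 26.7 TPM and then 111, 23.3 and 118 TPM (2.25, standard error 0.52, adjusted p = 0.017), groups that overlapped through the 2 libraries rich in mitochondrial counts, with ratios of 4.49 and 3.71 within both pairs. Its adjusted p was 0.056 without sgEPCR DMSO replicate 3 0.055 and 0.054 without sgEPCR UM171 replicates 1 and 3, and 0.056 with total count scaling. SH3D19 changed by 1.32 in counts (adjusted p = 0.02) and had a TPM ratio of 1.01, and its adjusted p was 0.051 and 0.064 without sgEPCR DMSO replicates 2 and 3 and 0.062 without sgEPCR UM171 replicate 3. H2AC19 had 0 counts in sgEPCR DMSO and 35.2, 56.1 and 90.2 counts in UM171, at least 18.8-fold higher when 3 counts per library stand for 0, and its reads can be shared with other histone genes.

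Other members showed no call in sgEPCR cells, among them CNN2 (log2 fold change 0.04, adjusted p = 0.92), HSPA1B (0.27, adjusted p = 0.57), MPEG1 (-0.29, adjusted p = 0.38), HP (-0.99, adjusted p = 0.13), LSP1 (-0.59, adjusted p = 0.091) and SCIMP (-0.44, adjusted p = 0.35). SCIMP, an adaptor of antigen-presenting cells, was at 0.38 to 0.47 TPM in sgEPCR DMSO, against 5.57 to 7.03 TPM in DMSO. With the term for the 2 libraries rich in mitochondrial counts, edgeR called HSPA1B higher (adjusted p = 0.0011). In that fit MPEG1 (adjusted p = 5.9e-04), HP (0.001) and LSP1 (0.043) were lower, and CNN2 (0.55) and SCIMP (0.3) had no call. A p that misses the threshold does not show that the level was the same.

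**Figure D4:**
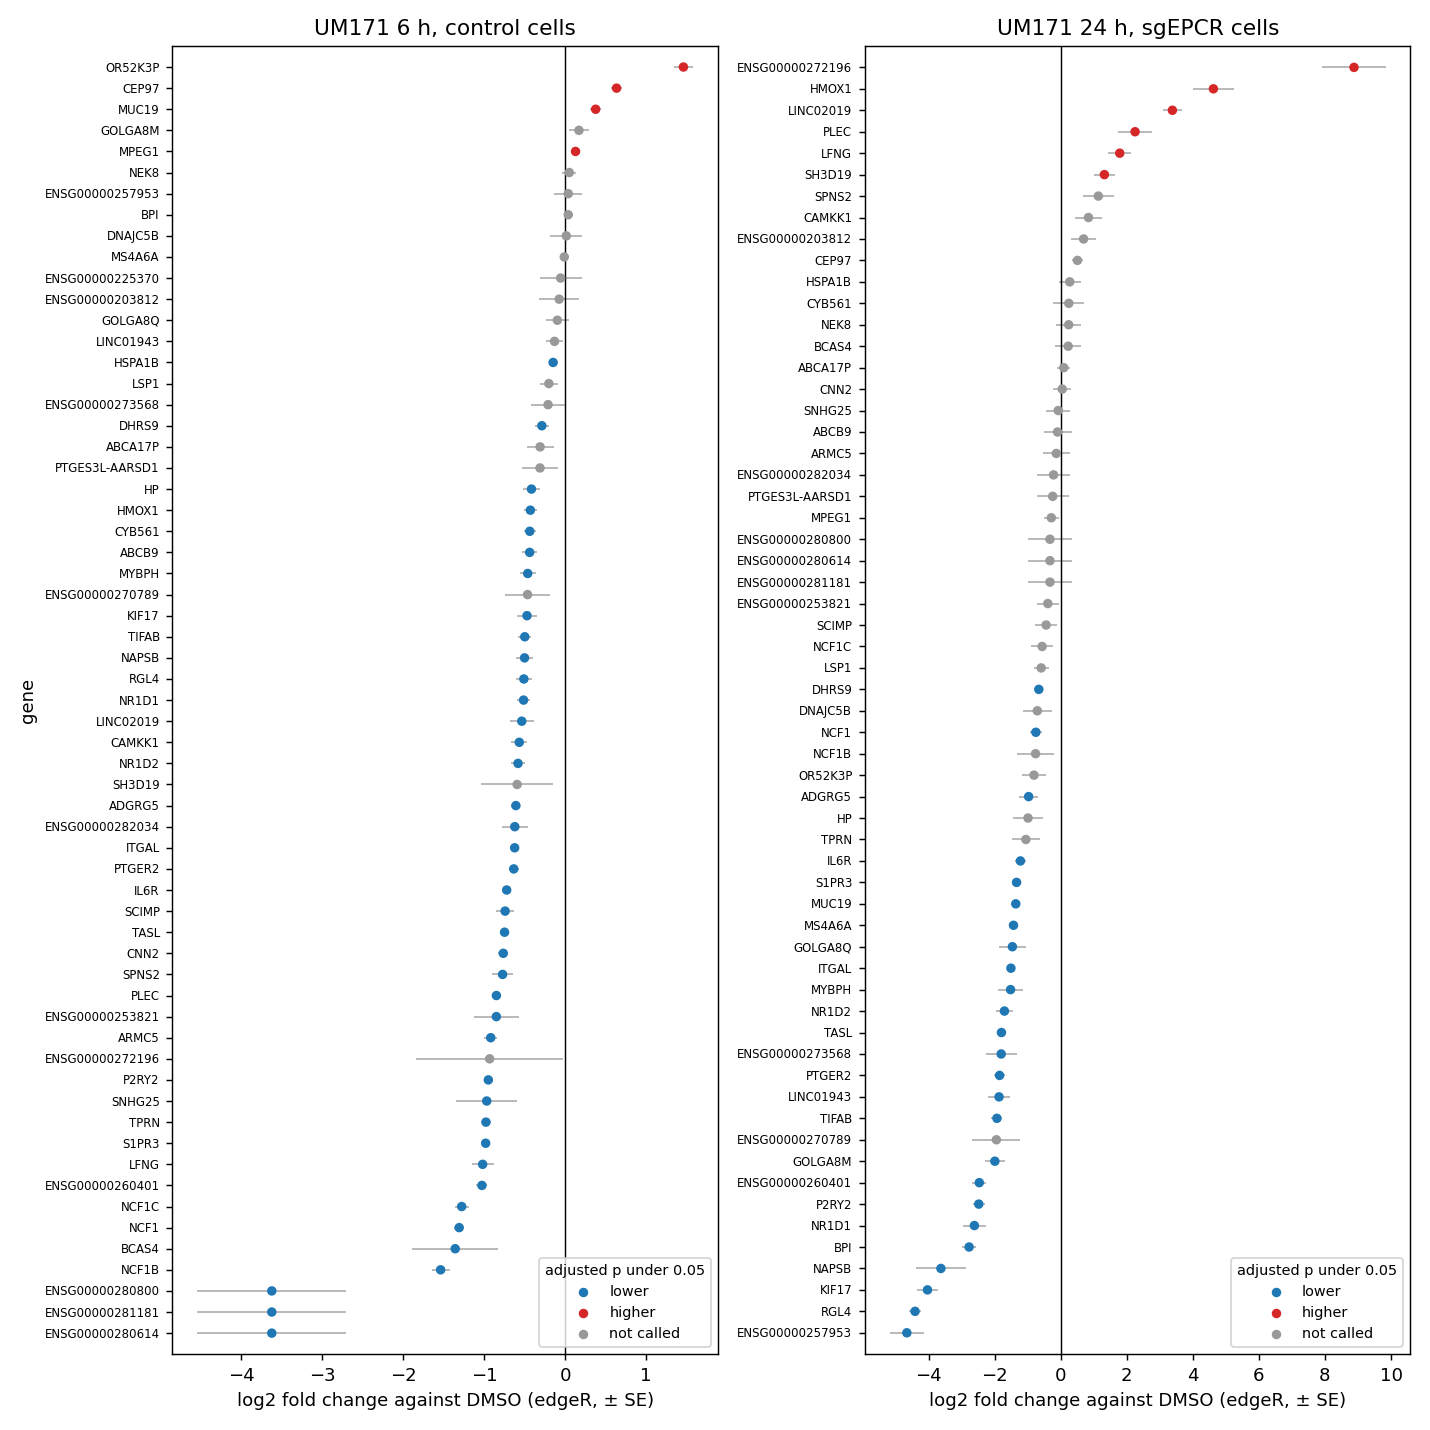
Log2 fold changes with standard errors from edgeR for the tested members, at 6 h in control cells (left, 61 genes) and at 24 h in sgEPCR cells (right, 60 genes), with blue for lower, red for higher and gray for no call at an adjusted p of 0.05. At 6 h 40 points are blue, and in sgEPCR cells 25 are blue and 6 are red, of which H2AC19 (ENSG00000272196) has 0 counts in DMSO and no bounded fold. On the right, NAPSB, KIF17, ENSG00000257953, ENSG00000273568, H2AC19 and LINC02019 passed the filter only through the group where they were high.

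Both comparisons called 17 of the 60 members tested in both lower, where 9.44% of 14876 genes tested in both were. The 17 include NAPSB and KIF17, which passed the filter in sgEPCR cells only through their DMSO libraries. Of the 6 members higher in sgEPCR cells, 4 were lower at 6 h in control cells and the other 2 had no call there. Of the members lower in sgEPCR cells, 1 (MUC19) was higher at 6 h and 7 had no call.

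Many members were already low in sgEPCR cells without UM171. In 52 of the 78, and in 47 of the 50 members with count ratios of at most 0.4, every sgEPCR DMSO library was below every DMSO library, where 43.1% of the genes at 5 TPM or more were. Since the DMSO libraries chose the members, this is a description. The median ratio of sgEPCR DMSO to DMSO was 0.38 in the 50 and 0.786 over the genes at 5 TPM or more. HMOX1 was at 0.0184 of DMSO, LINC02019 at 0.05, SCIMP at 0.0865, LSP1 at 0.108, NAPSB at 0.156 and CNN2 at 0.184, whereas ITGAL was at 0.925, HSPA1B at 0.89 and MS4A6A at 1.06. These means include sgEPCR DMSO replicate 1, which was rich in mitochondrial counts. HSPA1B had 49.2 TPM in it and 199 and 185 TPM in replicates 2 and 3, above every DMSO library. MS4A6A had 46.1 TPM in it and 82.5 and 81.4 TPM in the others, and ITGAL had 287, 184 and 190 TPM. The part of the mitochondrial share in these ratios was not tested. The time labels of these control groups differ, and genotype, clone and time cannot be told apart here.

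Beyond the members, the lists from which they come moved in both directions. Over all genes tested, 30.3% were lower and 31.8% higher at 6 h, and 16.2% lower and 20.8% higher in sgEPCR cells, and nothing is read from a list near these shares. Of the 22 adhesion and actin genes, 15 were lower and 4 higher at 6 h (median log2 fold change -0.31), and in sgEPCR cells 2 were lower and 6 higher (0.31). Of 15 heat shock genes, 12 were lower and 1 higher at 6 h (-0.44), and 4 were lower and 2 higher in sgEPCR cells (-0.11). Of 14 clock genes tested, 8 were lower and 4 higher at 6 h (-0.36), and 7 were lower and 4 higher in sgEPCR cells (-0.67). The 7 lower in sgEPCR cells were NR1D1, NR1D2, PER1, PER2, PER3, DBP and TEF. CRY1 (log2 fold change 1.16), BHLHE40 (2.82) and CLOCK (0.71) were among the 4 higher. In control cells, mean TPM went from 8.66 in DMSO to 15.1 at 72 h for DBP and from 14.6 to 6.69 for PER2. The listed clock genes thus moved in both directions, and the activity of the clock was not tested.

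Of 24 receptors tested at 6 h, 11 were lower and 7 higher (median -0.09), and of 23 in sgEPCR cells 5 were lower and 12 higher (1). The 5 lower receptors were the 5 members of that list. Of 16 monocyte genes, 7 were lower and 4 higher at 6 h (-0.05), and 5 were lower and 7 higher in sgEPCR cells (0.58). Of 16 granule and antimicrobial genes, 3 were lower and 7 higher at 6 h (0.18), and of 15 in sgEPCR cells 6 were lower and 2 higher (-0.99). Among transcription factors, 10 of 22 were lower and 6 higher at 6 h (-0.19), and 8 of 21 were lower and 5 higher in sgEPCR cells (-0.49). Of 39 histone genes tested, 2 were lower and 5 higher at 6 h (0.19), and of 35 in sgEPCR cells 0 were lower and 9 higher (0.39). Of 8 myeloid markers, 3 were lower and 3 higher at 6 h (-0.01), and 2 were lower and 3 higher in sgEPCR cells (-0.01). Of 4 markers of other cell types tested at 6 h, 1 was lower and 2 higher (0.22), and of 2 in sgEPCR cells, 0 were lower and 1, PECAM1, was higher (0.85).

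Positions were taken from GENCODE v44 (GRCh38). The closest members were SNORD12B and ENSG00000277967 on chromosome 20, 76 bases apart, the SNORD116 copies on chromosome 15, with gaps of 5142 and 8571 bases, and the chromosome 21 identifiers that share counts, with gaps of 43288 and 182113 bases. P2RY2 and ENSG00000260401 overlap. CAMKK1 and SPNS2 on chromosome 17 lay 603990 bases apart and SPNS2 and SCIMP 669885 bases, MPEG1 and MS4A6A on chromosome 11 lay 959088 bases apart, and NCF1 and NCF1C on chromosome 7 lay 367324 bases apart. ITGAL, ENSG00000282034 and ARMC5 followed each other on chromosome 16, with gaps of 180500 and 712911 bases, and ENSG00000282034 overlaps SRCAP on the same strand.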

How the data were processed

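Poly(A) RNA from OCI-AML5 cells was sequenced with a stranded kit. Per the labels, reads were processed with CASAVA 1.8.2, Trimmomatic 0.35, STAR 2.5.1b and RSEM 1.2.28 on GRCh38, and the authors deposited RSEM's expected counts (estimated counts that split shared reads, not normalized), the TPM (scaled by effective length and library total), and transcript lengths and posterior SDs, which are not levels. The study's statistics used kallisto and sleuth, and those values were not used here.

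The 45 entries of the Y pseudoautosomal region were summed with their X partners. Expected counts were rounded and fitted with edgeR 4.0.16 in R 4.3.3 (filterByExpr, TMM, glmQLFit and glmQLFTest), with Benjamini-Hochberg adjustment over all genes tested and a call at an adjusted p under 0.05. Libraries held 24.3 M to 51.5 M counts, and 3 counts was taken as the floor, which covers counting error only. Alternatives were limma 3.58.1 on log2(TPM + 0.1) or log2(TPM + 1), DESeq2 1.42.0, other scalings, filters and sets of libraries, a replicate block, stricter limits, and leaving out each library. The scripts were tested on simulated data. Figures used Python 3.11.15 and matplotlib 3.10.9.

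The members and gene lists were chosen with earlier results of these data known. Named genes were members in a list, the 15 highest in DMSO, the 10 with the lowest ratio, the 5 lowest and 5 highest at 6 h and in sgEPCR cells, the 3 genes nearest each side of each limit, and PROCR. Other genes, and the split into 50, 5, 6 and 17 members, were chosen after the values were seen. Same-numbered libraries were not shown to be paired. The counts over the list of NADPH oxidase genes are not reported here.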

Additional observations from a re-analysis of the deposited data

Results flagged for a closer look

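In 5 members every UM171 library at 24 h lay below every DMSO library in control cells and above every DMSO library in sgEPCR cells. Among the 10049 genes at 5 TPM or more in DMSO, 3.76% had both, and 13.1% had the second. Of the 3890 of these genes with the first, 378 also had the second, beside 5 of the 56 members with the first. These shares are similar, so the 5 are no more than the background holds. The fall in control cells was fixed by the choice of members, and the difference between the responses was not tested. The mean TPM in sgEPCR UM171 over that in sgEPCR DMSO was 26.6 for HMOX1, 9.01 for LINC02019, 5.37 for ENSG00000225370, an unprocessed pseudogene on chromosome 19 with 0, 2 and 2 counts in sgEPCR DMSO and 13, 9 and 16 counts in sgEPCR UM171, and 3.83 for LFNG, while H2AC19 (ENSG00000272196) was at least 18.8-fold higher. The level in sgEPCR DMSO was below that in control DMSO in each of the 5, and the part of that starting level and of the mitochondrial share in these ratios was not tested.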

How the results depend on the processing

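The number of members was 41 with a ratio limit of 0.3 and 174 with 0.5, and 175 with a DMSO minimum of 1 TPM and 49 with 10 TPM. It was 55 by TMM-normalized CPM, of which 45 were members. An alternative added after the data were seen also asked for at least 10 counts in every DMSO library and count ratios of at most 0.4. The 50 members described above met both limits, as did all of the 6 with a high DMSO replicate 1 except SH3D19. The number of members ranged from 68 to 89 without 1 library. The median late ratio of the members, 0.198, was 0.265 by CPM and 0.247 with 1 TPM added. For sgEPCR cells, limma called 6 members lower and 3 higher with either pseudocount, and the stricter limits 1 and 0. The members higher in sgEPCR cells were 11 with the mitochondrial term and 13 without those 2 libraries. Leaving out 1 library gave 20 to 26 lower and 4 to 9 higher. At 6 h, limma on log2(TPM + 0.1) called 26 lower, the stricter limits 5 lower and 1 higher, and total count scaling 33 lower and 8 higher, beside 40 and 4. The median of all genes tested moved by 0.18 at 6 h and 0.15 in sgEPCR cells with total count scaling, by 0.11 to 0.2 with limma and by 0.18 in sgEPCR cells without the filter, and sign changes under these settings are to be read against that shift. Other counts were within 1.5 times. Shares of all genes called are not given for limma, total count scaling, the replicate block or fits without 1 library. Counts of members under those settings show only how the calls depend on the processing.

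Same-numbered sgEPCR libraries had correlations of -0.838, -0.844 and 0.739 in their deviations from the group means, and those of 6 h and DMSO of 0.102, -0.0335 and 0.0573. The replicate block gave 19 lower and 3 higher in sgEPCR cells and 40 lower at 6 h. The block lost the calls of ADGRG5 (0.13), DHRS9 (0.064), LFNG (0.061), NAPSB (0.089), NCF1 (0.082), PLEC (0.086) and SH3D19 (0.073) in sgEPCR cells, given with their adjusted p. Not every sample correlated best with its own number. In sgEPCR cells, UM171 replicate 2 correlated best with DMSO replicate 1 (0.872), and UM171 replicates 1 and 3 with DMSO replicate 2 (0.805 and 0.806). The block by number thus joined libraries of opposite deviations in replicates 1 and 2, and the calls lost under it are to be read with that limit.

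Of 1198 refits of named genes, 1076 kept direction and call, 84 lost a call, 18 gained one and 20 changed sign, and the cause was not tested. In sgEPCR cells CNN2 was -0.0102 without the filter and between -0.1464 and 0.2449 without 1 library, below 0 without sgEPCR DMSO replicate 1 or sgEPCR UM171 replicate 1 or 3, and SCIMP was 0.0139 with limma on log2(TPM + 1). At 6 h, limma with 0.1 or 1 TPM added gave 0.1962 and 0.1937 for MS4A6A, 0.0181 and 0.018 for HSPA1B, 0.0033 and 0.0034 for LSP1, and -0.95 and -0.9033 for CEP97. MS4A6A was also 0.0868 with upper quartile and 0.1745 with total count scaling, 0.0407 with 10 counts in every library, 0.0061 with 6 libraries, and -0.043 to 0.0027 without 1 library, above 0 without DMSO replicate 1 only. HSPA1B was 0.0368 with total count scaling, and BPI was -0.0083 without the filter.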
